A study of Mus musculus with 12 samples.

Results

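The 10 genes described here, Fos, Fosb, Fosl2, Junb, Egr1, Egr2, Egr3, Egr4, Npas4 and Nr4a1, encode inducible transcription factors. They were taken by name from a list, and the rule applies no threshold on a measured value, although the list was drawn up with earlier results of these data known. All 10 were found among the 21492 genes of the deposited table. RNA was measured in striatal synaptosomes, which are pinched-off nerve terminals with attached postsynaptic membrane. It was sequenced from the polyribosomes of the synaptosomes (polysome) and from the synaptosome preparation before that step (input). The mice were labelled Shank3 TG, read here as transgenic for the postsynaptic scaffold gene Shank3, or wild type (WT), and both genotypes were males of the strain C57BL/6J at postnatal day 70. There were 3 libraries each of TG polysome, WT polysome, TG input and WT input, numbered 1 to 3 in every group. The labels used here name no promoter for the transgene, give no drug or stimulus for either genotype, and do not say whether animals were pooled or whether a number stands for an animal. The p-values are therefore set by how far the libraries of a group differ, and that variation may be technical.

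Immediate early genes are transcribed within minutes of a stimulus from factors that are already present, without new protein synthesis. In neurons, calcium entry and the ERK kinases act on CREB, which binds the cAMP response element, and on SRF, which binds the CArG box with its ternary complex partners. Fos and Fosb encode FOS proteins that pair with JUN proteins such as Junb to form the AP-1 dimer, and Fosl2 encodes the more slowly induced FOS relative FRA2. Egr1 to Egr4 encode zinc finger factors that bind GC-rich sites, and the proteins of Egr1, Egr2 and Egr3 are held back by the co-repressors NAB1 and NAB2. Npas4 encodes a bHLH-PAS factor that responds to calcium entry in neurons, and Nr4a1 encodes the orphan nuclear receptor NUR77. In the striatum, glutamate and dopamine D1 receptor input is known to induce these genes in medium spiny neurons, the principal cells there.

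The sequences before the start sites are shown for 5 of the genes, since the results below turn on Fos, Fosb, Npas4 and Egr2, and Nr4a1 carries the same CREB motif. RefSeq promoter windows of GRCm38.p6 were matched by symbol for 8 of the 10 genes, with 5 start sites for Egr2. The 250 bases before each start are given in the sense of the gene, with every match to a searched motif in capitals.
Fos, chr12:85473640-85473889, plus strand: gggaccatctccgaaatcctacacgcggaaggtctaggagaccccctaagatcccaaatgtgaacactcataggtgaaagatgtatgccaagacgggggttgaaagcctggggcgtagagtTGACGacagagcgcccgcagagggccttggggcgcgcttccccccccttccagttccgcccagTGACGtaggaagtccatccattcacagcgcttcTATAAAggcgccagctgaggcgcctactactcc
Fosb, chr7:19310046-19310295, minus strand: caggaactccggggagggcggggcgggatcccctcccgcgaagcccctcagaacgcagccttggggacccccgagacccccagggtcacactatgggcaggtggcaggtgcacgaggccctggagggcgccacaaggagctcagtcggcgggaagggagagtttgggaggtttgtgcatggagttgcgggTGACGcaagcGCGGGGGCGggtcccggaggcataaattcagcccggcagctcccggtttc
Npas4, chr19:4989972-4990221, minus strand: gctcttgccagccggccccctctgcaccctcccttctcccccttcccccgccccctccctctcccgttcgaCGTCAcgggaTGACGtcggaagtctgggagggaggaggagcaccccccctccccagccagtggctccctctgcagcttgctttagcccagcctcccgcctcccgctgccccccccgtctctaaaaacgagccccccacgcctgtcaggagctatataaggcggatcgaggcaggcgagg
Egr2, chr10:67537619-67537868, plus strand: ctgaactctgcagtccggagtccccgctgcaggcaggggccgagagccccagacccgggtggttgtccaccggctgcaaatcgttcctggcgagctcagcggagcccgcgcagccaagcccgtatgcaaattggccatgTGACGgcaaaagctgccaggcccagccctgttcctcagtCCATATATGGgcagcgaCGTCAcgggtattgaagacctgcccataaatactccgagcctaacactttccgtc
Nr4a1, chr15:101266596-101266845, plus strand: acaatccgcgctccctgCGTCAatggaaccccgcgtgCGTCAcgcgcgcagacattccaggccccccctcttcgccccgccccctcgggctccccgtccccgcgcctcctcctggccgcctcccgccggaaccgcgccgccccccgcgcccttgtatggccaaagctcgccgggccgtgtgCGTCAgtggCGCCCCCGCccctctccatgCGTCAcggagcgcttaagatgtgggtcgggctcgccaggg
The core of the cAMP response element, TGACG, was searched on both strands and was present in 7 of the 8 genes, all but Fosl2, against 17.8% of 32851 RefSeq windows of the same length. Fos and Npas4 each carried 2 copies, Fosb carried 1, Nr4a1 carried 4 and the Egr2 window carried 2. The full element TGACGTCA, which contains that core, was found in 0 of the 8 genes and in 1.55% of all windows. Within these 250 bases a CArG box, the site of SRF, was found in Egr2 alone of the 8 genes and in 1.47% of all windows. Egr1 and Egr3 had no window, and bases further upstream were not searched. A motif not found here may therefore lie outside the window. The EGR site GCGNGGGCG was found in Fosb, Fosl2 and Nr4a1 and in 4.70% of windows. TATAAA was found in Fos and in 12.4% of windows, and the AP-1 site TGANTCA in 0 of the 8 genes and in 6.75% of windows. A match is a description of letters and not of a bound site, and windows of neighbouring starts overlap.

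Values are the authors' normalized estimated counts per gene, called normalized counts below. Estimated depth was 76.8 to 102.6 M (mega) reads per polysome library and 62.3 to 85.9 M per input library, and the lowest member value in any library was estimated at about 199 reads. Both rest on an estimated value of 1 read, and only 32.5% to 45.8% of low values lay within 0.1 of a whole read. Shank3 checked the labels. It had 5012, 12626 and 12252 normalized counts in TG polysome libraries 1, 2 and 3 and 1501, 3702 and 5848 in WT polysome, and 5456, 17500.5 and 14107 in TG input against 2121, 4162 and 5858 in WT input. TG was above WT in every same-numbered pair, while the TG and WT ranges overlapped in both fractions and Shank3 did not pass the test in either. Markers of medium spiny neurons, the principal striatal cells, were present in every library, with none of 15 at 0, and so were those of cortical excitatory neurons, with none of 10 at 0. The summed level of the medium spiny markers was about 2 times higher in number 2 libraries than in numbers 1 and 3, at a ratio of 2.025 in polysome and 1.95 in input. The cortical markers went the other way, with ratios of 0.594 and 0.595. In these bulk libraries, fewer cells or terminals of a type and less RNA per cell cannot be told apart. Of the 10 members, Junb overlaps Prdx2 on the opposite strand, which the stranded kit can separate, and no member shared more than 0.523% of its 31-base stretches with another gene. In GRCm38 with GENCODE M21, Fos lies on chromosome 12 at 85473890 to 85477273 (plus strand) and Fosb on chromosome 7 at 19302696 to 19310051 (minus strand). Npas4 lies on chromosome 19 at 4984355 to 4990316 (minus strand) and Egr2 on chromosome 10 at 67535475 to 67542188 (plus strand), and all 10 genes are protein coding.

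Levels of different genes are compared per kilobase of exonic length. Junb was highest in both fractions, with 1857 ± 365 normalized counts per kilobase in polysome and 2437 ± 406 in input (mean ± SD over 6 libraries). Egr1, Nr4a1 and Egr3 had 1340 ± 318, 1124 ± 200.1 and 1088 ± 184 per kilobase in polysome, and 1555 ± 429.9, 1325 ± 225 and 979.8 ± 214 in input. Fosb was lowest in both, with 119 ± 56.4 per kilobase in polysome and 146 ± 101 in input. Neighbours in the order had overlapping ranges but for 1 gap in each fraction. In polysome the gap lay below Egr3, whose lowest library, 876 per kilobase, was above the highest of the next gene Fos, 770.2. In input it lay below Egr3 too, with a lowest library of 733 against a highest of 549 for Egr4, the next in order. All 10 genes passed the filter on low values.

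The members varied between libraries to different degrees. Npas4 spanned a ratio of 5.32 between its highest and lowest polysome library and 10.9 between its input libraries, while the median gene spanned 1.61 and 1.65. Fos spanned 2.01 in polysome and 3.76 in input, and Fosb 3.10 and 3.66. Nr4a1 spanned 1.73 and 1.46, close to the median gene.

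**Figure D1:**
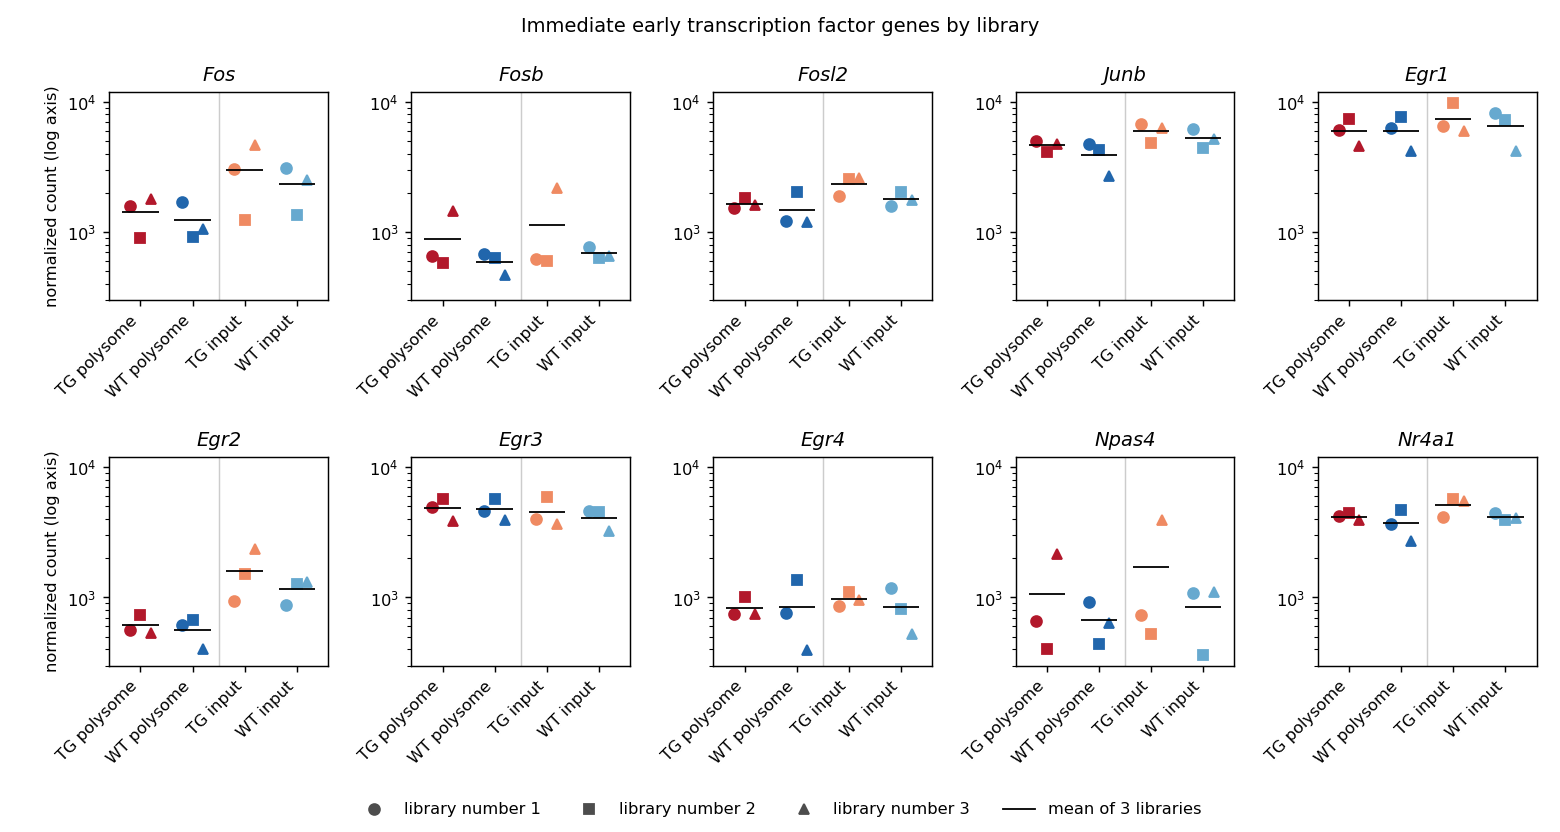
Normalized count of each gene (log axis) in every library, by group, with the symbol giving the library number and the bar the mean of 3 libraries. Npas4 and Fosb in TG number 3, at 2151 and 1445 in polysome and 3908 and 2197 in input, stand above all other libraries of their fraction.

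Among the FOS genes, Fos had 1574, 902 and 1812 normalized counts in TG polysome libraries 1, 2 and 3 and 1716, 923 and 1049 in WT polysome. Its input values were 3049.6, 1243 and 4669 in TG and 3114, 1355 and 2518 in WT. Both number 2 libraries were the lowest of their fraction, and TG number 3 was the highest. Fosb, whose protein also has a truncated form that accumulates in striatal neurons under repeated stimulation, had 655, 579 and 1445 in TG polysome and 685, 630.0 and 466 in WT polysome. In input it had 622, 601 and 2197 in TG and 770.5, 631 and 656 in WT. Of the 12 Fosb values, 10 lay between 466 and 770.5, and those of TG number 3 stood apart in both fractions. Fosl2 ranged over 1521 to 1828 in TG polysome and 1194 to 2022 in WT polysome, and over 1900.4 to 2591 in TG input and 1601 to 2033 in WT input. Junb, the JUN partner, had 4983, 4147 and 4781 in TG polysome and 4739, 4299 and 2682 in WT polysome, and 6746, 4844 and 6320.2 in TG input and 6171, 4401 and 5165 in WT input. WT polysome 3 was the lowest Junb value by a wide margin, and in input both number 2 libraries were lowest.

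Among the EGR genes, Egr2 had 565, 737 and 530.4 normalized counts in TG polysome and 611, 667 and 405 in WT polysome. In input it had 947, 1509 and 2372 in TG and 877, 1273 and 1309 in WT. Every polysome value lay below every input value, in both genotypes. Egr1, the best studied EGR factor of neuronal plasticity, ranged over 4546 to 7388 in TG polysome and 4158 to 7635 in WT polysome, and over 5975 to 9807 in TG input and 4171 to 8139.7 in WT input. Egr3 ranged over 3858 to 5725 and 3961 to 5686 in TG and WT polysome, and over 3665 to 5932 and 3229 to 4573 in TG and WT input. For both genes number 3 was the lowest of each group. Egr4, the EGR gene with the widest spread in polysome, had 744, 1005 and 752 in TG polysome and 759, 1370.4 and 396 in WT polysome, so that WT held both its highest and its lowest value in that fraction.

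Npas4 had 661, 404 and 2151 normalized counts in TG polysome and 929, 437 and 642 in WT polysome, and 735, 528 and 3908 in TG input and 1088, 359 and 1102 in WT input. TG number 3 was the highest library of each fraction, number 2 was the lowest of every group, and the TG and WT ranges overlapped. Nr4a1 ranged over 3900.5 to 4447 in TG polysome and 2725 to 4712 in WT polysome, and over 4151 to 5742 in TG input and 3934 to 4430.2 in WT input. Its ratio of highest to lowest input library was the smallest among the members.

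In TG library number 3, Npas4 and Fosb were far above every other library in both fractions. Npas4 was 2.32 times the highest of the other 5 libraries in polysome and 3.55 times in input, and Fosb was 2.11 and 2.85 times. Fos was also highest there, by 1.06 times in polysome and 1.5 times in input. Egr2 and Fosl2 were highest in TG number 3 in input alone, by 1.57 and 1.02 times, while Egr1, Egr3, Egr4, Junb and Nr4a1 were not highest in either fraction. TG number 3 was thus the highest library for 3 of the 10 genes in polysome and 5 of 10 in input, and for 3 of 10 in both. Of all genes tested, 19.4% were highest there in polysome, 19.5% in input and 7.42% in both. A ratio above 2 in both fractions was rarer, at 0.0376% of 15967 genes, and was reached by 6 genes in all, Npas4 and Fosb among them. The other 4 were Ptgs2, the inducible cyclooxygenase, Rgs13, Tmem40 and the noncoding RNA Gm48422, and of these Rgs13, Tmem40 and Gm48422 had values of at most 147 in every library. Both the library and the ratio of 2 were chosen after these values were seen, so the counts are a description.

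**Figure D2:**
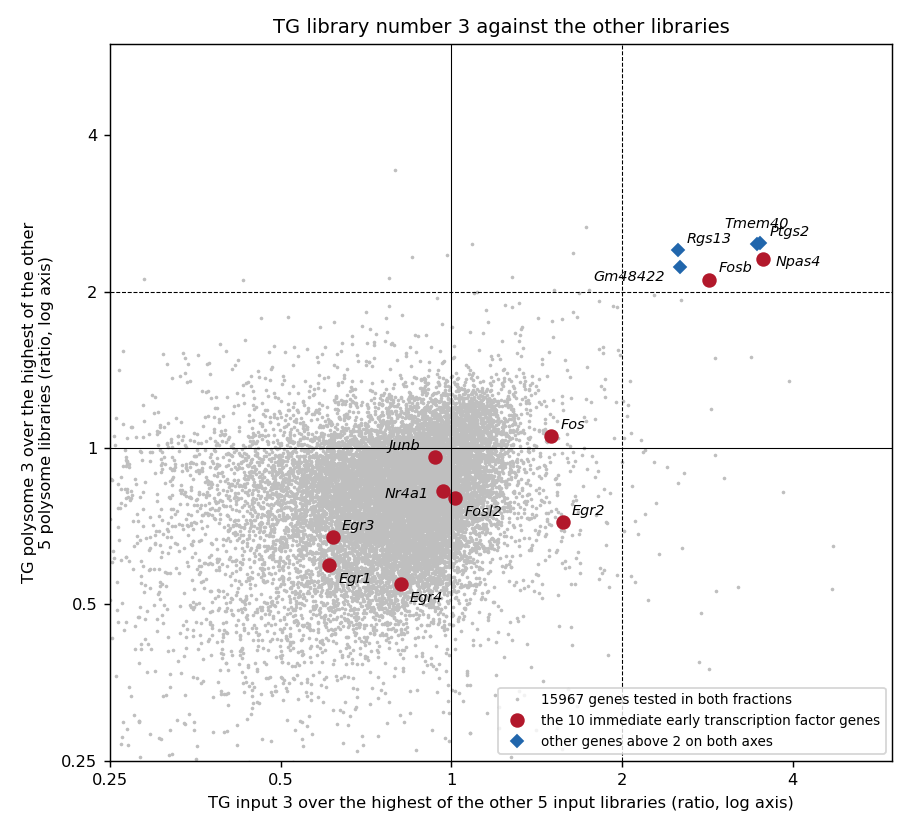
Ratio of TG number 3 to the highest of the other 5 libraries, in polysome (vertical) against input (horizontal), both on log axes, for 15967 genes, of which 462 lie outside the axes. Npas4 and Fosb lie above 2 (dashed lines) on both axes with 4 other genes, while Fos lies above 1 (solid lines) on both, Egr2 and Fosl2 on the input axis alone, and 5 of the 10 genes are below 1 on both.

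Among other inducible genes, Ptgs2 had 561, 293 and 2409 normalized counts in TG polysome libraries 1, 2 and 3 and 969, 332 and 647 in WT polysome, and 963, 417 and 4858 in TG input and 1386, 646 and 1190.1 in WT input. TG number 3 was the highest library and number 2 the lowest of every group, as for Npas4. Of the 24 immediate early effector genes, which encode the proteins that act at synapses or in signalling, 7 were highest in TG number 3 in both fractions (Bdnf, Dusp5, Gadd45g, Nptx2, Nrn1, Ptgs2 and Rgs2). Of 14 other inducible transcription factors tested in both fractions, 2 were (Atf3 and Maff), and of 22 upstream activators 1 was (Srf), beside the 7.42% of all genes. The count of upstream activators is below that share. Markers of other cells also differed in this library. By the same count, 4 of 8 microglial markers and 3 of 5 choroid and ependymal markers were highest in TG number 3 in both fractions. Among 8 astrocyte markers 1 was (Gfap). The counts were 0 of 15 for medium spiny, 0 of 8 for oligodendrocyte and 0 of 8 for endothelial and mural markers. The summed level of 6 choroid and ependymal markers was 33801 in TG polysome 3, against 848 to 17049 in WT polysome, and 15867 in TG input 3, against 585 to 10407 in WT input. TG libraries 1 and 2 had 2202 and 1073 in polysome and 1682 and 856 in input, and WT numbers 2 and 3 had the next highest sums. Npas4 in those WT libraries was at 437 and 642 in polysome and at 359 and 1102 in input. The sum of 8 microglial markers was highest in TG number 3, at 49749 in polysome, against 36431 to 42432 in WT polysome, and 43521 in input, against 30548 to 42275 in WT input. The sum of 10 cortical markers was highest there in polysome (150260) and not in input (95128, against 104490 in WT input 1). The sum does not stand for most of these markers. Their median log2 deviation from the group mean was 0.09 in TG polysome 3 and 0.37 in WT polysome 1. In input it was 0.40 in TG number 3 and 0.34 in WT number 1, so there the median marker was higher in TG number 3. Of the 10 markers, Neurod2 alone was highest in TG number 3 in both fractions. The part of these cells in the values of Npas4 and Fosb was not tested.

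The genotype comparison asked whether these transcripts differ in TG synaptosomes. All 10 genes had a positive log2 difference in both fractions, beside 53.4% of all genes in polysome and 47.1% in input. None of the 10 passed the test. Same-numbered libraries deviated together, so the 2 fractions do not count as independent. The median over the 10 was 0.21 in polysome and 0.29 in input, beside 0.01 and -0.01 over all genes. The 2 largest estimates in each fraction belonged to Fosb (0.48 ± 0.34, SE) and Npas4 (0.38 ± 0.56) in polysome, and to Npas4 (0.60 ± 0.75) and Fosb (0.45 ± 0.46) in input. The smallest unadjusted p of a member was that of Fosl2 in input, at 0.37 ± 0.18. The limma adjusted p was 0.9999 for every member in polysome and 1 in input, and 0 had an unadjusted p under 0.05. With the library number as a block, 0 members passed in either fraction, beside 0 of 16341 genes in input and 1 of 16312 in polysome. Fosl2 and Egr2 then had an unadjusted p under 0.05 in input, with SEs of 0.11 and 0.15 and a limma adjusted p of 0.9998 for both. How many of all genes reached that unadjusted p with the block was not counted. Fosl2, Junb and Egr2 were higher in TG in all 3 input pairs, and none of these 3 genes was higher in TG in all 3 polysome pairs. The share of all genes higher in TG in all 3 pairs was not counted. Without the block, 0.0% of all genes passed in polysome and 0.0% in input, with 53 of 16312 and 80 of 16341 at an unadjusted p under 0.05. The members' count of 0 without the block does not differ from that background. The TG and WT ranges overlapped for all 10 genes in both fractions, and the share of all genes whose ranges overlapped was not counted.

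The genotype difference was largest in number 3. Within pairs of same-numbered libraries, TG was above WT for 4, 2 and 9 of the 10 genes in polysome in numbers 1, 2 and 3, with median log2 differences of -0.04, -0.07 and 0.65. In input TG was above WT for 3, 8 and 10 genes, with medians of -0.15, 0.36 and 0.70. For Npas4 the pair of number 3 had TG over WT ratios of 3.35 in polysome and 3.55 in input, while number 1 had 0.712 and 0.676. Without the number 3 libraries, an alternative chosen after the data were seen, 5 of the 10 genes were positive in polysome (median -0.02) and 7 in input (median 0.07). Npas4 then had log2 differences of -0.30 in polysome and -0.01 in input, Fosb of -0.09 and -0.19, and Fos of -0.08 and -0.08. Leaving out TG number 3 alone gave Npas4 differences of -0.30 in polysome and -0.28 in input. Leaving out WT number 3 alone moved the polysome median to 0.02, and WT polysome 3 was the lowest library for Fosb, Fosl2, Junb, Egr1, Egr2, Egr4 and Nr4a1. Medium spiny markers had positive estimates for 15 of 15 genes in both fractions (medians 0.23 in polysome and 0.21 in input), with 0 of 15 passing. Oligodendrocyte markers were positive in 7 of 8 genes in polysome and 8 of 8 in input, and cortical excitatory markers in 2 of 10 and 1 of 10. Other inducible transcription factors were positive in 8 of 14 genes in each fraction (medians 0.04 in polysome and 0.01 in input), and effector genes in 17 of 24 in each. Of all genes, 53.4% had positive estimates in polysome and 47.1% in input. The part of the medium spiny, oligodendrocyte and cortical cells in the members' difference was not tested.

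**Figure D3:**
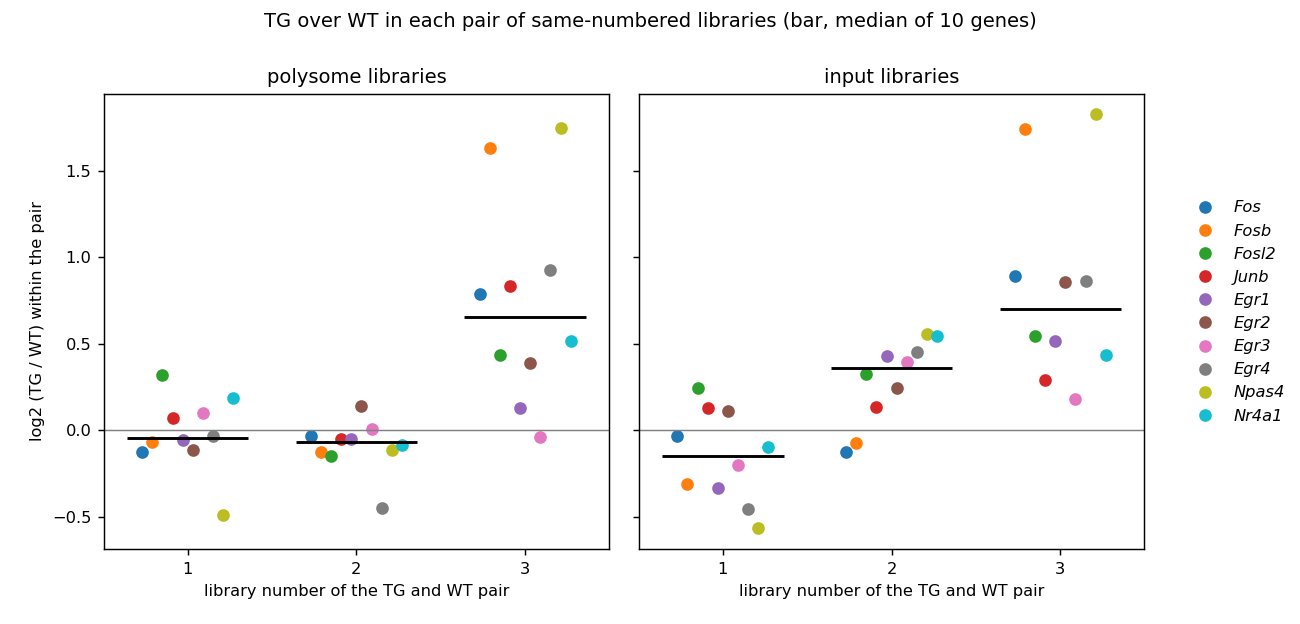
Log2 ratio of TG over WT within each pair of same-numbered libraries, for the 10 genes in polysome (left) and input (right), with bars at the median. In number 3 the medians are 0.65 and 0.70, with Npas4 and Fosb highest, and in number 1 they are -0.04 and -0.15.

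Whether the TG effect in polysome differs from that in input was tested next. In limma 0 of the 10 genes passed, and 0.0% of 16962 genes did, of which 94 had an unadjusted p under 0.05. The estimates ran from -0.26 ± 0.43 (SE) for Egr2 to 0.10 ± 0.31 for Junb, with 8 of 10 negative and a median of -0.12, beside 0.02 over all genes. Of all genes, 54.1% had estimates above 0. The median lay between -0.26 without WT polysome 3 and 0.06 without WT polysome 2, so its sign changed with single libraries.

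Polysome against input asked which of the transcripts were carried on synaptosomal polyribosomes above or below their level in the preparation. Egr2 fell in polysome in both genotypes and was the single member to pass in the fit without the library number as a block. With that block, Fos passed too in both genotypes and Fosl2 in TG, as given below. Egr2 averaged 611 ± 111 normalized counts in TG polysome and 1609 ± 718 in TG input (SD, n = 3), and 561 ± 138 in WT polysome and 1153 ± 239.8 in WT input. The log2 difference was -1.31 ± 0.31 (SE) in TG, with a limma adjusted p of 0.0140, and -1.05 ± 0.31 in WT, with an adjusted p of 0.04015. The polysome value was below the input value in all 6 pairs, at 0.5965, 0.488 and 0.224 of it in TG and 0.6965, 0.524 and 0.309 in WT numbers 1, 2 and 3. Genes lower in polysome made up 9.86% of 16962 genes in TG and 8.59% in WT, so 1 member of 10 is near the background, and genes higher made up 8.19% and 5.36%, with 0 members. Rises and falls are relative to other genes, whose median differences were 0.03 in both genotypes.

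The Egr2 call depended on single libraries in the fit without the block, the only one from which single libraries were left out. In TG it was lost without TG input 3, without TG polysome 1 and without TG polysome 3 (adjusted p from 0.0521 to 0.0576), and held in the other 9 cases, with log2 differences between -1.64 and -0.98 over the 12. In WT it was lost in 7 of the 12 cases, with an adjusted p of up to 0.152 and differences between -1.23 and -0.83, the smallest without WT polysome 3. Those cases were WT input 2 or 3, any of the 3 WT polysome libraries, TG input 2 and TG polysome 1. Without the number 3 libraries, Egr2 had -0.89 in TG (adjusted p = 0.1095) and -0.73 in WT (adjusted p = 0.183).

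Fos was lower in polysome as well, at 0.516, 0.725 and 0.388 of input in TG and 0.551, 0.682 and 0.417 in WT numbers 1, 2 and 3. Its log2 difference was -0.93 ± 0.46 in TG (adjusted p = 0.178, limma) and -0.89 ± 0.46 in WT (adjusted p = 0.2097). Without TG input 2, Fos passed in TG (adjusted p = 0.0433). With the library number as a block, which pairs the polysome and input library of a number, the SE was 0.19 and Fos passed in TG (adjusted p = 0.00701) and in WT (adjusted p = 0.0102). Fosl2 passed in TG with the block (-0.49 ± 0.14, adjusted p = 0.0256) and had -0.32 ± 0.14 in WT (adjusted p = 0.111). Egr2 passed with the block too, at -1.31 ± 0.28 in TG (adjusted p = 0.00819, limma) and -1.05 ± 0.28 in WT (adjusted p = 0.0223). The blocked fit called 3 of the 10 genes lower in TG and 2 of 10 in WT, while it called 16.6% and 15.9% of all genes lower. Fos, Fosl2, Junb and Egr2 were lower in polysome in all 6 pairs, 4 of the 10 genes against 24.1% of all genes. The TG ranges of polysome and input did not overlap for Fosl2 and Egr2, 2 of 10 genes beside 18.0% of all genes, and the WT ranges did not for Egr2 alone, beside 18.5%.

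Egr3 alone had positive estimates. Its polysome value was above input in 5 of 6 pairs, at ratios of 0.965 to 1.259, with log2 differences of 0.11 ± 0.23 in TG and 0.21 ± 0.23 in WT that did not pass (adjusted p of 0.781 and 0.578, limma). The other members had negative estimates in both genotypes, while 51.8% of all genes were above 0 in each. The median over the 10 was -0.33 in TG and -0.23 in WT. Egr2 and Egr3 thus stood at the ends of the order although both are EGR genes, and this difference between them was not tested. Summed nuclear long noncoding RNAs, which mark nuclear RNA, were 6874 to 9620 in TG polysome and 17075 to 30808 in TG input, and 9239 to 11242 in WT polysome and 20977 to 30609 in WT input, so that the 2 fractions did not overlap. Their part in the fall of Egr2 was not tested.

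**Figure D4:**
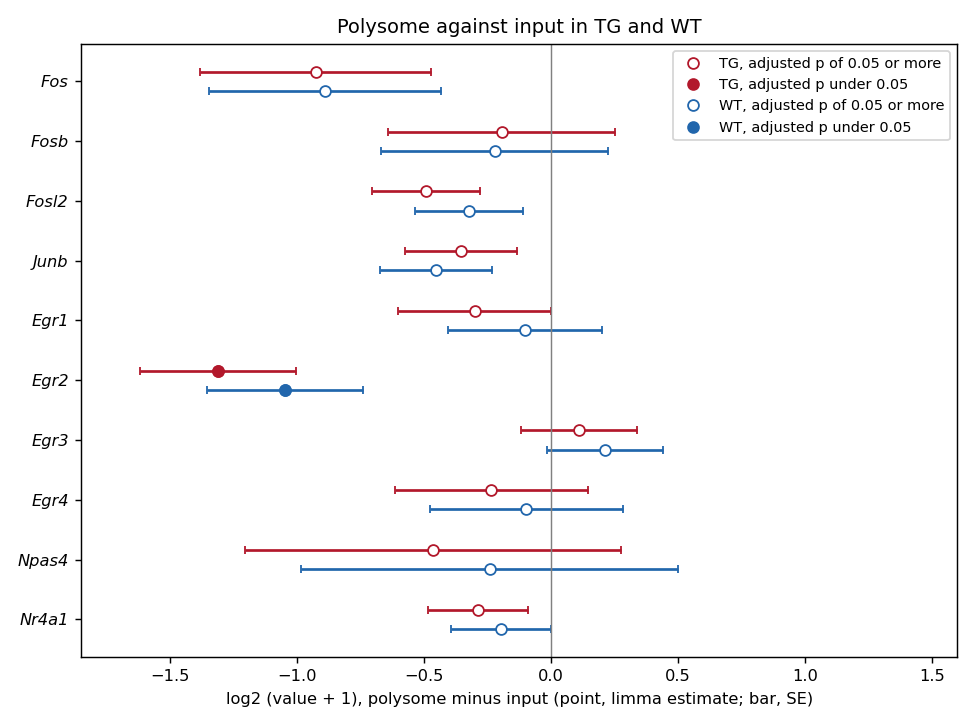
Difference between polysome and input on the log2(value + 1) scale, with its SE, in TG (upper point) and WT (lower point) for the 10 genes. Egr2 lies lowest, at -1.31 in TG and -1.05 in WT, with filled points for an adjusted p under 0.05 without the block. Egr3 alone lies above 0 in both.

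In the number 2 libraries some members were at their lowest and others at their highest. Fos and Npas4 were lowest in both number 2 libraries in polysome and in input, and Junb in input. Their number 2 means were 0.593 (Fos) and 0.384 (Npas4) of the mean of numbers 1 and 3 in polysome, and 0.389 and 0.2595 in input. That is 2 of 10 genes in polysome and 3 of 10 in input, beside 16.1% and 15.0% of all genes. In polysome, Fosl2, Egr1, Egr2, Egr3, Egr4 and Nr4a1 were highest in both number 2 libraries, with ratios of 1.264 for Nr4a1 to 1.79 for Egr4. That is 6 of 10 genes beside 19.1% of all genes, and 0 of 10 beside 16.8% in input. In input Egr1 and Egr3 had number 2 ratios of 1.38 and 1.35, with WT input 1 above the lower of the number 2 libraries.

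A test of the 3 numbers with genotype as a term called 4 of 10 genes in each fraction, beside 26.5% of all genes in polysome and 20.5% in input. In polysome these were Egr1 (adjusted p = 0.00734), Egr3 (0.0304), Egr4 (0.0306) and Fos (0.0309, limma). In input they were Fos (0.00838), Npas4 (0.0208), Egr2 (0.0225) and Junb (0.0440). The fit has few residual degrees of freedom, and without the trend of variance on level it called 0 members in either fraction (adjusted p from 0.0654 to 0.179 for the genes named here), and 92 genes in polysome and 17 in input. With single libraries left out it called 1 to 8 members in polysome and 2 to 6 in input, where 1 was left without WT polysome 2, 2 without TG polysome 2, 8 without TG polysome 3 and 2 without TG input 3.

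Some cell type markers differed between the numbers and others did not pass. All 15 medium spiny markers passed this test in both fractions, with summed levels of 645980 and 599020 in TG and WT polysome 2, against 266200 to 358220 in the other polysome libraries. In input they were 609610 and 537330 in TG and WT number 2, against 259630 to 324630. Cortical excitatory markers passed in 7 of 10 genes in polysome and 8 of 10 in input, with 69929 and 80207 in TG and WT polysome 2, against 103990 to 150260, and 51802 and 54736 in input, against 77528 to 104490. Summed oligodendrocyte markers had number 2 ratios of 1.48 in polysome and 1.52 in input, with 3 of 8 and 5 of 8 genes passing. Astrocyte markers passed in 3 of 8 genes in polysome and 0 of 8 in input, endothelial and mural markers in 2 of 8 and 0 of 8, and microglial markers in 2 of 8 and 4 of 8. Choroid and ependymal markers passed in 4 of 6 genes in polysome and 1 of 5 tested in input. Of all genes, 26.5% passed in polysome and 20.5% in input. These marker counts come from the fit with the variance trend, and markers were not counted without it. None of the 15 medium spiny or 10 cortical markers was at 0 in any library, and the part of these cell types in the members' values was not tested.

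**Figure D5:**
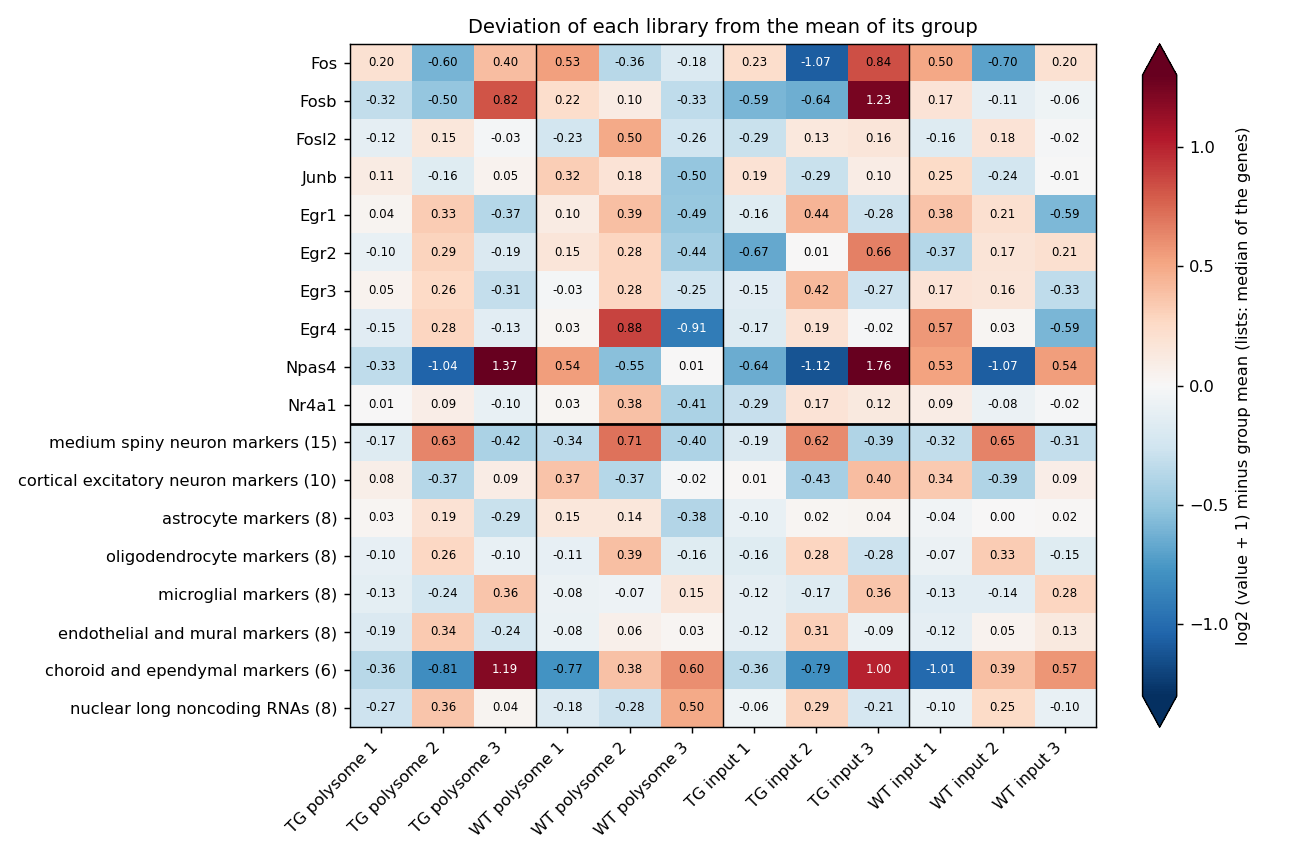
Deviation of each library from the mean of its group on the log2(value + 1) scale, for the 10 genes (above the line) and the median gene of each marker list (below; number of genes in brackets). Npas4 is at 1.37 and 1.765 in TG polysome 3 and TG input 3, and medium spiny markers are at 0.62 to 0.71 in all number 2 libraries, where Fos and Npas4 are negative. Cortical excitatory markers are negative in those libraries too, at -0.43 to -0.37.

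In polysome against input, 4 of 14 other inducible transcription factors passed in TG and 3 of 14 in WT, beside 18.1% of all genes in TG and 14% in WT passing in either direction. Jund, a constitutive JUN partner of FOS proteins, rose in polysome by 0.80 ± 0.18 on the log2 scale in TG and 0.78 ± 0.18 in WT (adjusted p of 0.0127 and 0.01765, limma). Crem, whose products include the repressor ICER, rose in TG by 0.71 ± 0.22. Nr4a2, the NUR77 relative NURR1, fell with log2 differences of -0.89 ± 0.22 in TG and -0.85 ± 0.22 in WT, and Klf10 with -0.71 ± 0.18 and -0.62 ± 0.18. The median of this list was 0.32 in TG and 0.08 in WT. Among 24 effector genes, Arc, the dendritic immediate early transcript, fell in both genotypes (-0.89 ± 0.20 in TG and -0.83 ± 0.20 in WT), and Sik1 fell in TG (-0.76 ± 0.22), while 0 rose. These counts, 2 of 24 in TG and 1 of 24 in WT, are below the shares of all genes.

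Among 22 upstream activators, 4 passed in each genotype, a share near the 18.1% and 14% of all genes, so the genes below are described singly. The SRF co-activator genes Mrtfa and Mrtfb fell with log2 differences of -1.0 ± 0.22 and -1.03 ± 0.19 in TG and -0.90 ± 0.22 and -0.92 ± 0.19 in WT. Crebbp, the CREB-binding acetyltransferase, fell with -0.76 ± 0.20 in TG and -0.71 ± 0.20 in WT. Map2k2, a kinase that activates ERK, rose by 0.87 ± 0.20 in TG and 0.93 ± 0.20 in WT. Of 10 partners and co-repressors, Batf3 alone passed, rising in TG (1.82 ± 0.58, adjusted p = 0.0456). Its level was low, at 10.9 to 21.6 normalized counts in polysome and 1.43 to 13 in input, with the lowest value in TG input 3. In the genotype comparisons 0 members of these 4 lists passed in either fraction. The smallest p among the effectors belonged to Arl4d in polysome (0.42 ± 0.21) and Gadd45g in input (0.54 ± 0.24), neither of which passed. Crem, Klf10, Sik1, Mrtfa and Crebbp are named beside the largest rise and fall of their lists after their values were seen.

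The pattern of the 10 genes was summarized as the mean of their log2(value + 1) deviations from the group means over the 12 libraries. Of 13437 other protein-coding genes whose mean log2 level reached 5, the 5 most like it by Pearson correlation were Tmem185b (r = 0.947), Slc35a2 (0.944), Pigs (0.931), Bcap31 (0.931) and Slc2a1 (0.9285). Without both TG number 3 libraries the same genes had r of 0.926, 0.909, 0.914, 0.914 and 0.894. The 5 genes were picked as the highest of 13437 on these same libraries, so a high r is given by the choice and neither set of values is a test. The 12 points share preparations and library numbers. Tmem185b had 1319, 1378 and 1446 normalized counts in TG polysome and 1430.5, 1496 and 1313 in WT polysome, a far smaller range than that of the members. The members' own mean deviation was highest in TG input 3 (0.43). In polysome it was -0.06, -0.09 and 0.15 in TG numbers 1, 2 and 3 and 0.17, 0.21 and -0.38 in WT. The median over the 10 genes was 0.14 in TG input 3 and -0.06 in TG polysome 3, so in that polysome library the mean and the median differ in sign.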

How the data were processed

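RNA of 12 libraries was sequenced with a stranded total RNA kit, per the labels' protocols. The deposited signal per gene is the authors' normalized estimated count, and Salmon 1.1.0, R 3.6.2, DESeq2 1.26.0 and GRCm38 are named in the submitters' processing notes, which do not say how the 2 fractions were scaled to each other. Whole reads could not be recovered, since only part of the low values lay within 0.1 of a whole read, so no count test was run. Values were tested as log2(value + 1), which understates the change of low genes. A gene was tested where at least 3 of the fitted libraries reached 10. limma 3.58.1 in R 4.3.3 was used with a variance trend, Benjamini-Hochberg adjustment over all genes tested and a threshold of 0.05, and was tested on simulated data. Genotype was fitted in the 6 libraries of a fraction, polysome against input and the difference of genotype effects in all 12, and library numbers with genotype as a term. Same-numbered libraries deviated together (correlations of 0.242 to 0.545 over 18 pairs, against -0.413 to -0.0009 over 36 differently numbered pairs), so that the numbers pair the libraries by the data, while no label defines the number. Of 21492 gene identifiers, 21465 were matched to GENCODE M21. Alternatives were upper-quartile scaling, no filter, a pseudocount of 5, no variance trend, all 12 libraries, the replicate block and single libraries left out. Leaving out all number 2 or number 3 libraries was chosen after seeing the data. The members and lists were chosen with earlier results of these data known. Genes named from the other lists are those with the largest rise and fall among the called, or the smallest p where none was called, with Crem, Klf10, Sik1, Mrtfa and Crebbp added outside that rule after their values were seen, and likeness names the 5 genes with the highest correlation. Tables were handled in Python 3.11.15 with pandas 2.3.3 and numpy 2.4.6, and plotted with matplotlib 3.10.9.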

Additional observations from a re-analysis of the deposited data

How the results depend on the processing

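The 3 libraries a group limit the precision of the genotype estimates. In simulated data, a log2 difference of 2 between genotypes was recovered in 89% of changed genes in polysome and 86% in input. For the difference of genotype effects it was 73.5%, and for library numbers 32.5% in polysome and 45.5% in input. Simulated libraries were drawn independently, unlike the same-numbered libraries here, and smaller sizes were not tested. Every member had at least about 199 estimated reads in each library, with the value of 1 read itself estimated. Upper-quartile scaling, a pseudocount of 5 and the removal of the filter changed no count of members called in the genotype and polysome against input comparisons. For library numbers, the first 2 called 5 members in input, a pseudocount of 5 called 5 in polysome, and removal of the filter called 2 in input. Without a variance trend, 0 members were called for polysome against input in WT and 0 for library numbers in either fraction. With the replicate block, 3 members were called for polysome against input in TG and 2 in WT (5638 and 5052 genes), and the block changed no other count of members called. No paired analysis was possible for the library numbers because the number is the term tested. With single libraries left out, members called ranged over 0 to 2 for polysome against input in TG, 0 to 1 in WT, 1 to 8 for library numbers in polysome and 2 to 6 in input. Without the number 2 libraries, and without the number 3 libraries, 0 members were called for polysome against input in TG and in WT. Without the number 2 libraries, Egr3 had a TG against WT difference of -0.0076 in input. Without the number 3 libraries, TG against WT was -0.0793 for Fos, -0.0928 for Fosb, -0.051 for Egr1, -0.24 for Egr4 and -0.30 for Npas4 in polysome, and -0.077 for Fos, -0.19 for Fosb and -0.0057 for Npas4 in input. Polysome against input was then 0.0101 for Fosb in TG, and 0.0605 for Egr4 and 0.0266 for Npas4 in WT. With single libraries left out, TG against WT in polysome ranged from -0.24 to 0.20 for Egr1, -0.0793 to 0.28 for Egr2, -0.11 to 0.18 for Egr3, -0.31 to 0.59 for Egr4 and -0.30 to 0.90 for Npas4. In input it ranged from -0.17 to 0.78 for Fos, -0.16 to 0.77 for Fosb, -0.088 to 0.39 for Egr1, -0.0854 to 0.26 for Egr3, -0.0088 to 0.57 for Egr4 and -0.28 to 1.17 for Npas4. Polysome against input ranged in TG from -0.60 to 0.42 for Fosb, -0.0264 to 0.32 for Egr3 and -1.15 to 0.42 for Npas4, and in WT from -0.40 to 0.14 for Egr1, -0.54 to 0.36 for Egr4, -0.78 to 0.0317 for Npas4 and -0.39 to 0.0052 for Nr4a1. The cause of these changes was not tested.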
